A study of Mus musculus with 8 samples.

Results

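The subject is a set of 10 mouse genes for the enzymes that make serine, make asparagine and carry one-carbon units on folate. They are the serine synthesis genes Phgdh, Psat1 and Psph, the asparagine synthetase gene Asns, the mitochondrial folate genes Shmt2, Mthfd2, Mthfd1l and Aldh1l2, and the cytosolic folate genes Shmt1 and Mthfd1. They were taken by symbol, and all 10 were among the 24411 gene symbols of the tables. Polyadenylated RNA of whole hearts was sequenced from 4 mice with a cardiac-specific knockout of Yin-Yang 1 (YY1 KO; YY1 is a zinc-finger transcription factor) and from 4 MerCreMer control mice, which carry a Cre recombinase held inactive until a ligand is given. All 8 mice were C57BL/6 and had undergone transverse aortic constriction 1 week earlier, an operation that loads the left ventricle with pressure, and no unoperated heart was analysed here. The sources used here do not give the promoter of the transgene, the age of the mice, the inducing treatment or the Yy1 alleles of the controls. The question addressed was how transcripts of this pathway differed in loaded hearts with and without the cardiac-specific knockout of YY1.

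Serine is made from a glycolytic intermediate in sequential steps, which PHGDH opens by oxidation, PSAT1 continues by transamination and PSPH completes by removing phosphate. Serine hydroxymethyltransferases, SHMT2 in mitochondria and SHMT1 in the cytosol, then split serine into glycine and a one-carbon unit bound to tetrahydrofolate. MTHFD2 oxidises that unit inside mitochondria, MTHFD1L releases it as formate, ALDH1L2 can oxidise it to carbon dioxide with formation of NADPH, and MTHFD1 handles the formate in the cytosol for purine, thymidylate and methionine synthesis. Asparagine synthetase makes asparagine from aspartate and glutamine. Several of these genes, Asns, Psat1, Phgdh and Mthfd2 among them, are known targets of ATF4, the transcription factor of the integrated stress response.

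The libraries held 14582605 to 16000455 reads assigned to genes. Yy1 itself stood at 18.04 to 23.8 CPM (read count scaled to library size by TMM) in YY1 KO hearts and at 33.8 to 37.2 CPM in controls (log2 fold change −0.78 ± 0.10, edgeR adjusted p = 0.000769). The series describes every mouse as male, but Xist was expressed in 4 hearts, with Y-linked transcripts at or close to 0. These were YY1 KO 1 and 4 and controls 1 and 4, whereas YY1 KO 2 and 3 and controls 2 and 3 expressed Y-linked genes, so both genotypes held 2 hearts of each kind. Cardiomyocyte markers summed to 59350 to 83791 CPM in YY1 KO hearts and to 83563 to 109125 CPM in controls and were abundant in every heart. In whole tissue, fewer cells of a type and less RNA per cell cannot be told apart. The source of the Yy1 reads that remained in YY1 KO hearts was not tested.

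All 10 genes passed the filter on low counts, and 6 of them were called higher in YY1 KO hearts (adjusted p under 0.05, edgeR quasi-likelihood test, Benjamini-Hochberg adjustment over 13506 genes). These were Asns, Mthfd2, Psat1, Aldh1l2, Shmt1 and Psph. None of the 10 was lower, all 10 log2 fold changes being above 0, and Phgdh, Mthfd1l, Mthfd1 and Shmt2 did not pass. Among all genes tested, 21.6% were higher and 17.3% lower by the same rule. At least 2-fold higher were 3 of the 10 (Asns, Mthfd2 and Psat1), against 6.11% of all genes tested. In 5 of the 10 every YY1 KO heart lay above every control, which held for 21.8% of all genes tested. The median log2 fold change of the 10 was 0.91, beside 0.01 over all genes tested. The 10 were chosen with earlier results of these data known, so these shares are not an independent comparison. Asns and Mthfd2 had the largest fold changes of the 10, and the next, Psat1, lay well below them.

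**Figure D1:**
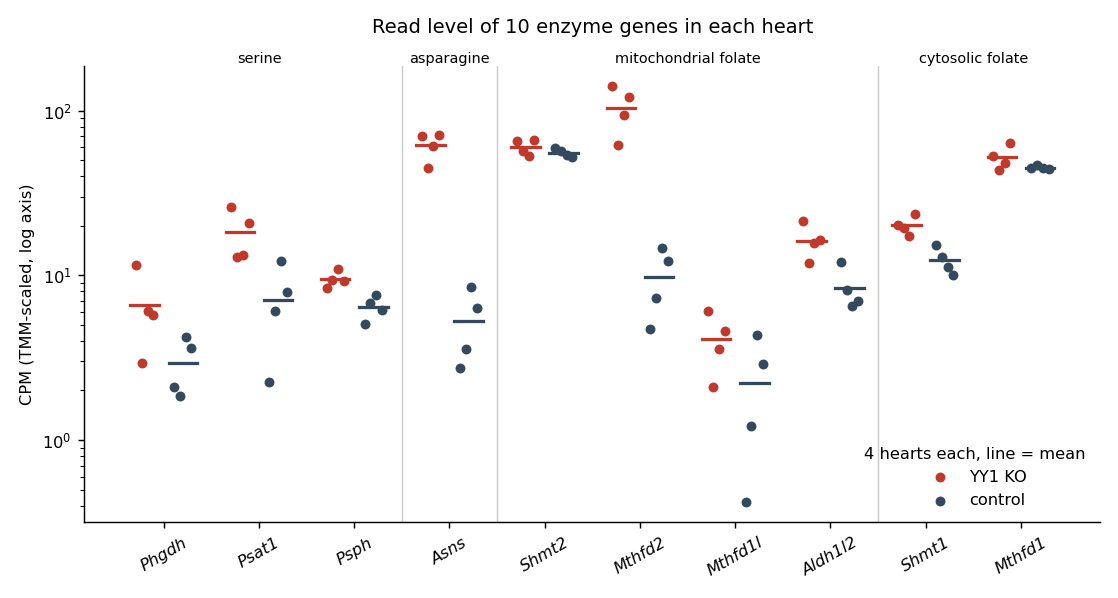
CPM of the 10 enzyme genes in each heart on a log axis, YY1 KO (red) left of control (dark) for each gene, with a point per heart and a line at the mean of 4. Asns and Mthfd2 are separated by a wide gap, whereas Shmt2 and Mthfd1 overlap.

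Asns (chr6:7675169-7693254, minus strand, mm10), which makes asparagine, had the largest difference of the set. Its level was 69.7, 44.8, 61.3 and 70.8 CPM in YY1 KO hearts 1 to 4, against 2.75, 3.56, 8.53 and 6.32 CPM in controls 1 to 4. The lowest YY1 KO heart was well above the highest control, and the spread was relatively wider among the controls. The mean was 61.6 ± 11.98 CPM in YY1 KO and 5.29 ± 2.65 CPM in control hearts (SD, n = 4 each). The log2 fold change was 3.53 ± 0.33 (SE), a fold between 6.92 and 19.3 (95% confidence interval), with an edgeR adjusted p of 0.000246. It ranked 41st by fold change among the genes tested.

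Mthfd2 (chr6:83305691-83325908, minus strand), the mitochondrial dehydrogenase and cyclohydrolase, followed closely. It stood at 140.1, 61.4, 93.5 and 121 CPM in YY1 KO hearts 1 to 4, against 4.72, 7.26, 14.7 and 12.2 CPM in controls 1 to 4. Again no control reached any YY1 KO heart, and YY1 KO 2 was the lowest of its group. The log2 fold change was 3.41 ± 0.38 (fold between 5.90 and 19.2, edgeR adjusted p = 0.000416), the 53rd highest among the genes tested. With either gene, leaving out any library kept the adjusted p at 0.00259 or less.

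Promoters are shown for these 2 genes, which differed most, and for Shmt2, the next enzyme upstream of MTHFD2 in mitochondria, which did not pass. Each window runs from 250 bases before to 50 bases after the RefSeq start (GRCm38.p6, the build also called mm10), and all 3 lie on the minus strand. The windows are chr6:7693160-7693459 for Asns, chr6:83317555-83317854 for Mthfd2 and chr10:127522395-127522694 for Shmt2. Capitals mark a match to TGATGNAA, the C/EBP-ATF composite element to which ATF4 is known to bind, and the windows of Mthfd2 and Shmt2 held none.
Asns: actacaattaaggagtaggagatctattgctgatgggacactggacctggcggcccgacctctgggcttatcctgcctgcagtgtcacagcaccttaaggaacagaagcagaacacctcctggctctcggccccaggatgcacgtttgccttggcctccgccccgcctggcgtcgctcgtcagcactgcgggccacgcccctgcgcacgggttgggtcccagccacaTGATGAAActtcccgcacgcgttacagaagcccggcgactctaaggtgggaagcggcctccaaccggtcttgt
Mthfd2: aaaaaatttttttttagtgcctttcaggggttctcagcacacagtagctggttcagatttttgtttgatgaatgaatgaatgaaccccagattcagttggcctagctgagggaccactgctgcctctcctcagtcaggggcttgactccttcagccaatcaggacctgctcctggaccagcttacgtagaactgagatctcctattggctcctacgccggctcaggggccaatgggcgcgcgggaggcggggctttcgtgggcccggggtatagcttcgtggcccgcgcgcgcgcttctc
Shmt2: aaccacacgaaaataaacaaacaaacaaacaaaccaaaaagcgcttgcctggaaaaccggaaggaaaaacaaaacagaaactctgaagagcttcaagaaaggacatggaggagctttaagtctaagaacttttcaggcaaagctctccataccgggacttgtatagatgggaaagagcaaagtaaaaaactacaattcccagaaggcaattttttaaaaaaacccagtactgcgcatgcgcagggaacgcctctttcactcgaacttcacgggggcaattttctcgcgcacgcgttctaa

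The match in the Asns promoter, TGATGAAA, began 23 bases before the annotated start. The window table held 10 promoters of 9 of the 10 genes, all but Aldh1l2, and the Asns promoter was the only one of the 10 with a match. Both strands were searched, and 3.97% of all 32851 windows held TGATGNAA. The form of the YY1 motif searched, AANATGG, was in none of the 10 member windows and in 16.1% of all windows. Shorter forms of that motif were not searched. The E-box CACGTG was in none of the 10 and in 7.15% of all. The outermost GENCODE starts of Mthfd2, Psat1 and Shmt1 lie upstream of these windows and were not searched. A match or its absence describes the letters of these windows and not binding.

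Of the other mitochondrial folate genes Aldh1l2 was higher, and Shmt2 and Mthfd1l did not pass. Shmt2 (chr10:127517123-127522444, minus strand; its exons overlap Ndufa4l2 on the other strand) stood at 65.3, 56.6, 52.8 and 66.4 CPM in YY1 KO hearts 1 to 4, against 58.9, 57.2, 53.9 and 52.0 CPM in controls 1 to 4. The groups overlapped, the log2 fold change was 0.12 ± 0.09 (edgeR adjusted p = 0.341), and the 95% interval of the fold ran between 0.937 and 1.26. Mthfd1l (chr10:3973118-4167081, plus strand), the formate-releasing synthetase, was at 6.11, 2.11, 3.57 and 4.61 CPM in YY1 KO hearts 1 to 4, against 0.423, 1.21, 4.36 and 2.91 CPM in controls 1 to 4. It had the lowest mean CPM of the 10 in both groups and the widest error, with controls 3 and 4 inside the YY1 KO range. Its log2 fold change was 0.87 ± 0.58 (fold between 0.737 and 4.54, edgeR adjusted p = 0.261), and it was 0.52 without control 1 and 1.42 without control 3.

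Aldh1l2 (chr10:83487450-83534140, minus strand), the mitochondrial formyltetrahydrofolate dehydrogenase, was at 21.2, 11.8, 15.7 and 16.3 CPM in YY1 KO hearts 1 to 4, against 11.97, 8.12, 6.51 and 7.02 CPM in controls 1 to 4. Control 1 was just above YY1 KO 2, and otherwise the groups were apart. Its log2 fold change was 0.96 ± 0.23 (fold between 1.35 and 2.79, edgeR adjusted p = 0.0112). Its exons overlap those of D10Wsu102e on the other strand, and 10.3% of its stranded reads in YY1 KO and 10.8% in control hearts lay opposite to it. Counted on its own strand, the log2 fold change was 0.97 (edgeR adjusted p = 0.0140).

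In serine synthesis Psat1 and Psph were higher and Phgdh did not pass. Psat1 (chr19:15904678-15947337, minus strand), the aminotransferase, was at 26.1, 12.9, 13.3 and 20.6 CPM in YY1 KO hearts 1 to 4, against 2.25, 6.05, 12.2 and 7.97 CPM in controls 1 to 4. The groups were separated by a narrow gap, between YY1 KO 2 and control 3. Psat1 had a log2 fold change of 1.35 ± 0.43 (fold between 1.30 and 5.01, edgeR adjusted p = 0.0343). It lost its call without control 2 (adjusted p = 0.0875), control 4 (0.0682), YY1 KO 1 (0.0886), YY1 KO 3 (0.0506) or YY1 KO 4 (0.0706), and with no filter on low counts (0.0570).

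Phgdh (chr3:98313170-98339990, minus strand), the first enzyme of the route, was at 11.6, 2.92, 6.04 and 5.74 CPM in YY1 KO hearts 1 to 4, against 2.11, 1.85, 4.23 and 3.605 CPM in controls 1 to 4. Only YY1 KO 2 lay within the control range, and YY1 KO 1 was the highest. The log2 fold change was 1.15 ± 0.42 (fold between 1.15 and 4.30), and the edgeR adjusted p of 0.0572 missed the threshold. DESeq2 called it (adjusted p = 0.0259), as did edgeR without control 3 (0.0486) or YY1 KO 2 (0.0212), and without YY1 KO 1 the log2 fold change was 0.73.

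Psph (chr5:129765558-129787449, minus strand), the phosphatase of the last step, had the tightest values of the route, with 8.43, 9.37, 10.98 and 9.23 CPM in YY1 KO hearts 1 to 4, against 5.07, 6.76, 7.64 and 6.13 CPM in controls 1 to 4. All YY1 KO hearts were above all controls. The log2 fold change was 0.57 ± 0.16 (fold between 1.16 and 1.90, edgeR adjusted p = 0.0199), and it did not pass once control 4 (adjusted p = 0.0522) or YY1 KO 3 (0.0639) was left out. Psph overlaps Cct6a on the other strand, and on its own strand the log2 fold change was 0.61 (edgeR adjusted p = 0.0178).

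Of the cytosolic folate genes Shmt1 was higher and Mthfd1 did not pass. Shmt1 (chr11:60788104-60811718, minus strand) was at 20.1, 19.3, 17.3 and 23.6 CPM in YY1 KO hearts 1 to 4, against 15.4, 12.9, 11.2 and 9.99 CPM in controls 1 to 4. The groups did not overlap, and the log2 fold change was 0.70 ± 0.15 (fold between 1.28 and 2.07, edgeR adjusted p = 0.00671). It overlaps Smcr8 on the other strand, with 9.46% of stranded reads opposite in YY1 KO and 13.1% in control hearts, and its own-strand log2 fold change was 0.77 (edgeR adjusted p = 0.00553). Mthfd1 (chr12:76255298-76319803, plus strand; its exons overlap Gm47525), the trifunctional cytosolic enzyme, was at 52.9, 43.9, 48.3 and 63.3 CPM in YY1 KO hearts 1 to 4, against 44.7, 46.5, 44.7 and 44.5 CPM in controls 1 to 4. The controls were nearly alike and YY1 KO 2 lay below them. This gave a log2 fold change of 0.21 ± 0.11 (fold between 0.973 and 1.38, edgeR adjusted p = 0.162).

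Ratios of a mitochondrial to a cytosolic isozyme within a heart, which need no scaling between libraries, did not all differ in the same direction. The log2 ratio of Shmt2 to Shmt1 read counts was 1.70, 1.55, 1.603 and 1.49 in YY1 KO hearts 1 to 4, against 1.94, 2.15, 2.27 and 2.38 in controls 1 to 4. Every YY1 KO heart was below every control, by 0.60 on average (two-sided exact permutation test, p = 0.0286, adjusted over 4 ratios 0.0381). The smallest p that 70 assignments allow is 0.0286. The log2 ratio of Mthfd2 to Mthfd1 went the other way, at 1.40, 0.48, 0.95 and 0.93 in YY1 KO hearts and −3.23, −2.67, −1.599 and −1.86 in controls. Here all YY1 KO hearts were above all controls, by 3.28 on average (exact p = 0.0286, adjusted 0.0381).

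Aldh1l2 was set against Aldh1l1, its cytosolic counterpart, which was not itself called (log2 fold change −0.28 ± 0.33, edgeR adjusted p = 0.515). The log2 ratio was 3.01, 0.67, 1.86 and 1.54 in YY1 KO hearts 1 to 4, against 0.43, 0.56, 0.31 and 0.60 in controls 1 to 4. The groups did not overlap although YY1 KO 2 was close to the controls (difference 1.29, exact p = 0.0286, adjusted 0.0381). Mthfd1l over Mthfd1 was at −3.11, −4.36, −3.75 and −3.77 in YY1 KO hearts and at −6.61, −5.22, −3.35 and −3.92 in controls. These groups overlapped (difference 1.03, exact p = 0.257), and without control 1 the difference was 0.42. The calls of the other 3 ratios were lost without YY1 KO 4 or any of the controls (exact adjusted p of 0.0571 or 0.0762).

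**Figure D2:**
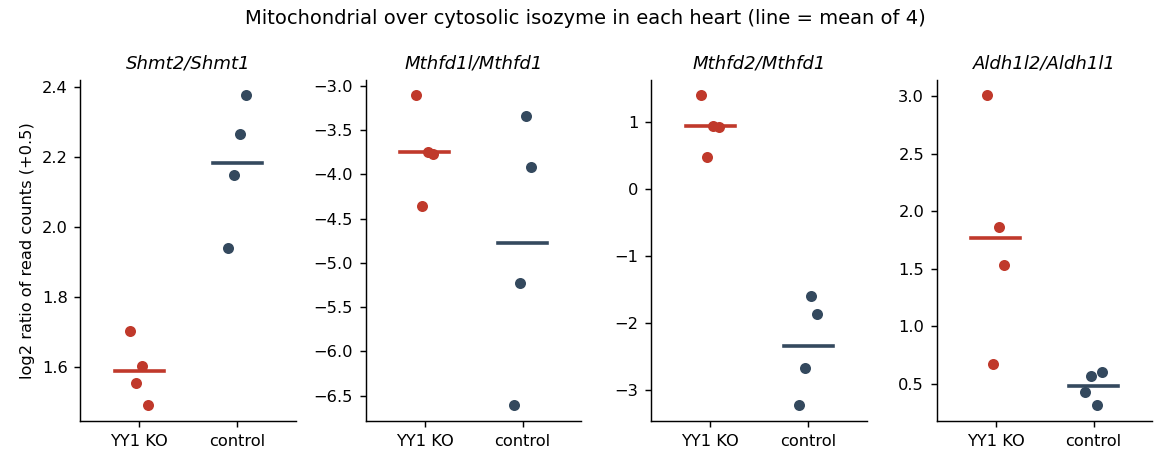
Log2 ratio of the read counts of the mitochondrial over the cytosolic isozyme in each heart, YY1 KO (red) left of control (dark), each panel with its own axis and a line at the mean of 4. Shmt2/Shmt1 is lower, Mthfd2/Mthfd1 and Aldh1l2/Aldh1l1 are higher and Mthfd1l/Mthfd1 overlaps.

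Levels of different genes can be compared only per transcript length, here as TPM, scaled over exonic lengths of 2486 to 7503 bases for these genes. Mthfd2 stood at 111.4 ± 40.8 TPM in YY1 KO hearts, followed by Asns at 83.8 ± 19.1, Shmt2 at 71.8 ± 10.1 and Mthfd1 at 43.5 ± 7.92 TPM (SD, n = 4). The first 3 overlapped between hearts, and Mthfd1 lay below Shmt2 without overlap. In controls Shmt2 led with 60.6 ± 2.23 TPM, followed by Mthfd1 at 34.5 ± 1.13, Shmt1 at 10.8 ± 1.74 and Mthfd2 at 9.59 ± 4.76 TPM, and Asns had 6.66 ± 3.53 TPM. Shmt2, Mthfd1 and Shmt1 were separate there, whereas Shmt1, Mthfd2 and Asns overlapped. Mthfd1l was the lowest by mean in both groups, with 3.47 ± 1.56 TPM in YY1 KO and 1.74 ± 1.42 TPM in control hearts.

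The remaining genes kept to a low band. In YY1 KO hearts Shmt1 was at 19.1 ± 2.76, Psat1 at 16.01 ± 6.20, Phgdh at 9.95 ± 5.91, Psph at 8.10 ± 0.847 and Aldh1l2 at 8.08 ± 2.28 TPM. In controls Psat1 was at 5.77 ± 3.51, Psph at 5.05 ± 0.995, Phgdh at 4.07 ± 1.71 and Aldh1l2 at 3.78 ± 0.997 TPM, with overlapping hearts. Per heart, Asns and Mthfd2 made up 45.0 to 54.4% of the summed TPM of the 10 genes in YY1 KO hearts, against 5.96 to 16.03% in controls. Mthfd2 transcripts numbered 0.966 to 1.91 for each Shmt2 transcript in YY1 KO hearts and 0.0714 to 0.244 in controls.

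**Figure D3:**
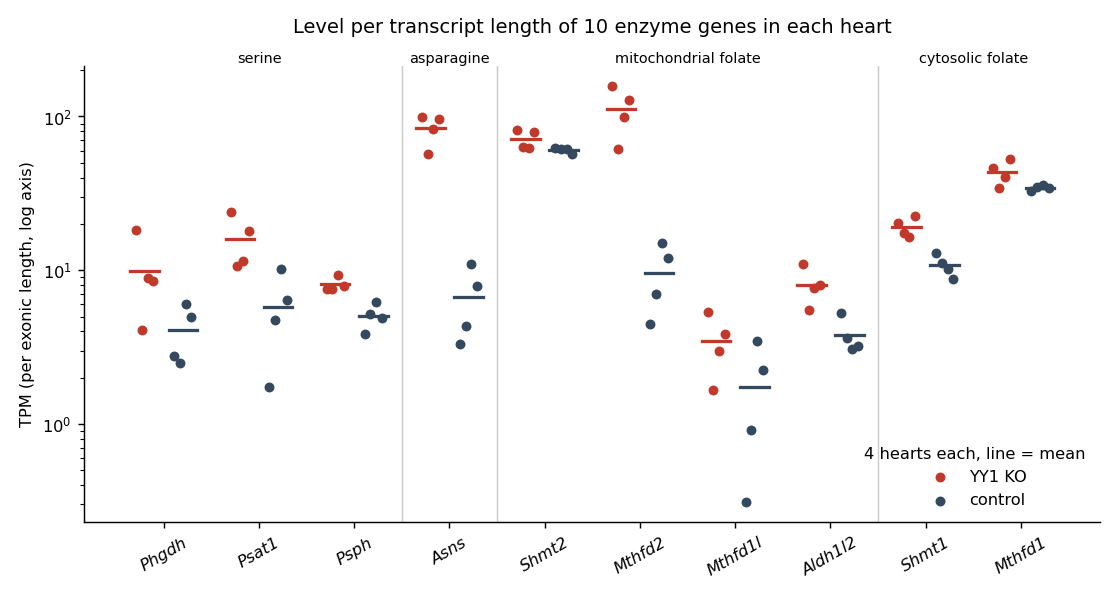
TPM of the 10 genes in each heart on a log axis, YY1 KO (red) left of control (dark), with a line at the mean of 4. Mthfd2, Asns and Shmt2 share the top range in YY1 KO hearts, and Shmt2 and Mthfd1 stand alone at the top in controls.

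The pooled values were also taken apart by the sex-linked transcripts. In the Xist-positive hearts (2 against 2) the log2 fold change was 3.94 for Asns, 3.94 for Mthfd2, 2.18 for Psat1, 1.59 for Phgdh and 1.67 for Mthfd1l. In the Y-positive hearts (2 against 2) it was 3.10 for Asns, 2.79 for Mthfd2, 0.50 for Psat1, 0.53 for Phgdh and 0.002 for Mthfd1l. Psph (0.65 and 0.48), Aldh1l2 (0.99 and 0.89) and Shmt1 (0.79 and 0.59) were closer in both kinds of heart, given as Xist-positive and then Y-positive. For Shmt2 the values were 0.25 and −0.04, and for Mthfd1 0.38 and −0.002. Within the Y-positive hearts Asns, Mthfd2 and Aldh1l2 were called higher, beside 12.7% of all genes, and within the Xist-positive hearts edgeR and limma-voom called 0 of 13671 genes, with 3451 and 3477 at an unadjusted p under 0.05. The interaction of genotype and sex had an edgeR adjusted p of at least 0.812 for all 10 genes and was called for 0 of 13506 genes, with 702 at an unadjusted p under 0.05. With a term for sex the Psat1 call was lost (adjusted p = 0.0596).

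Hearts of one genotype were ordered alike by 3 of the 10 genes, and the other members did not share that order in both genotypes. Among controls Shmt1, Shmt2 and Aldh1l2 were highest in control 1. Shmt1 and Shmt2 were lowest in control 4 and Aldh1l2 in control 3. Psat1, Mthfd2 and Mthfd1l ran from YY1 KO 1 through 4 and 3 to 2, and from control 3 through 4 and 2 to 1, high to low. The proliferation antigen gene Mki67 ordered the hearts in the same way, as did 13 of the other 14 dividing-cell markers and 3.591% of all other genes tested. The 15 markers summed to 210.9, 72.0, 104.7 and 168.8 CPM in YY1 KO hearts 1 to 4, against 93.0, 184.1, 481.9 and 310.9 CPM in controls 1 to 4. The sum of the fibroblast markers was likewise lowest in YY1 KO 2 (2028 CPM) and control 1 (1416 CPM). It ranged from 2028 to 6258 CPM in YY1 KO hearts and from 1416 to 4764 CPM in controls. Single markers did not all follow the sum, Dcn being lowest in YY1 KO 3 and Tcf21 in YY1 KO 4 and control 2.

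Of the 15 dividing-cell markers 1 (Mcm2) was lower in YY1 KO hearts by edgeR (2 at an unadjusted p under 0.05), 1 by limma-voom and 2 by DESeq2. None was higher by any of these tools, also unadjusted, and the median log2 fold change was −1.29 in edgeR. The edgeR counts of the other lists were as follows, beside 21.6% of all genes tested higher and 17.3% lower. Of the fibroblast markers 1 of 10 was higher and 0 lower, of the cardiomyocyte markers 1 of 10 higher and 3 lower, of the endothelial markers 1 of 10 higher and 6 lower, and of the smooth muscle and pericyte markers 1 of 8 higher and 3 lower. DESeq2 called 5 cardiomyocyte, 7 endothelial and 5 smooth muscle and pericyte markers lower. Of the leukocyte markers 0 of 11 tested were called either way by edgeR, DESeq2 or limma-voom, also at an unadjusted p under 0.05. Endothelial markers summed to 1105 to 1293 CPM in YY1 KO hearts, against 1441 to 1989 CPM in controls, and smooth muscle and pericyte markers to 555 to 704 CPM, against 1009.6 to 1155 CPM, without overlap in either list. Leukocyte markers overlapped (392.3 to 542 CPM in YY1 KO hearts, 326 to 575 CPM in controls). The 6 adipocyte markers summed to 0.650 to 2.37 CPM in YY1 KO hearts and to 0.0632 to 1.39 CPM in controls, and none passed the filter. The part of these cell types in the enzyme differences was not tested. A fit with a term for the mean of the dividing-cell markers was chosen after the data were seen. In it edgeR called Phgdh (log2 fold change 1.65, adjusted p = 0.00145) and Mthfd1l (1.88, adjusted p = 0.00116), and 8 of the 10 were higher, beside 24.4% of all genes tested. The markers themselves ran lower in YY1 KO hearts by median, so this term is partly confounded with genotype. Its larger fold changes therefore do not replace those of the fit on genotype alone. Without control 1 and YY1 KO 2 together, 6 of the 10 were higher, beside 18% of all genes, Phgdh among them (1.26, adjusted p = 0.0357) and Psph not (adjusted p = 0.0611).

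**Figure D4:**
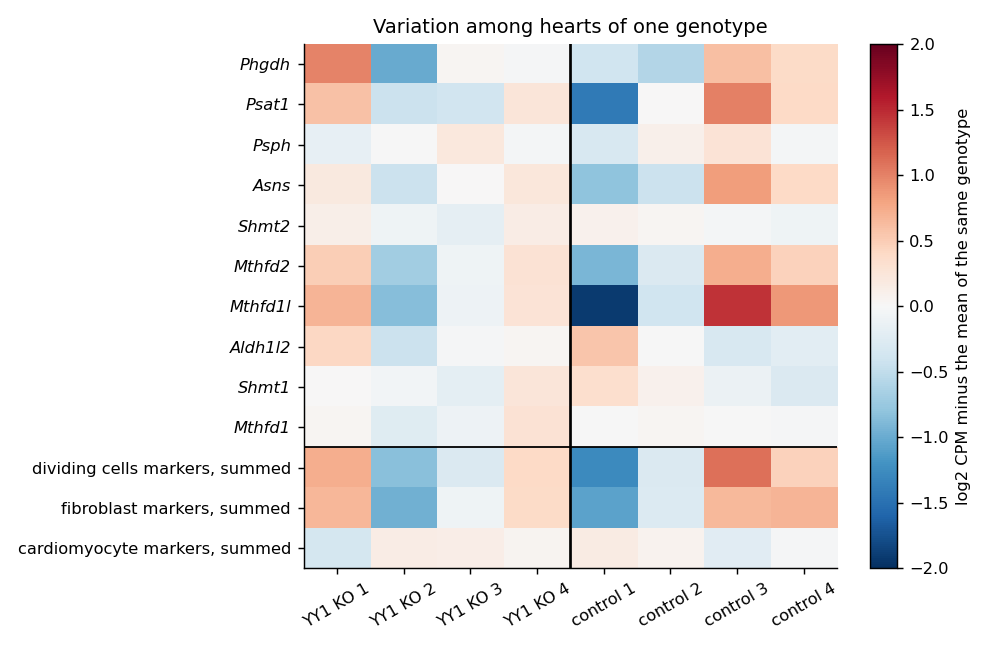
Log2 CPM of the 10 genes and of 3 summed marker lists in each heart, less the mean of the hearts of the same genotype (colour, −2 to 2), YY1 KO hearts left of the line and controls right of it. YY1 KO 2 and control 1 are low in Psat1, Mthfd2, Mthfd1l and the dividing-cell and fibroblast sums, whereas Shmt2 and Mthfd1 vary little.

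The 10 were then set beside genes that neighbour them in metabolism. Of 77 tested genes in 8 pathway lists, 26 were higher and 5 lower, against 21.6% and 17.3% of all genes tested. Another 12 listed genes were too low to test. Of the 26 higher genes, 12 belonged to the list of ATF4 and its other targets, of which 17 were tested. The lists were chosen with earlier results of these data known. The lower genes of these lists numbered 3 without control 2 or 4 or YY1 KO 1, 3 or 4. Each list count below is to be read beside those shares of all genes. Among 16 other folate enzymes and carriers 3 were higher and 1 lower, with a median log2 fold change of 0.05. Mthfs, which recycles 5-formyltetrahydrofolate, was higher (0.85 ± 0.22), and the folate receptor gene Folr2 was lower (−0.72 ± 0.16; on its own strand −1.10, edgeR adjusted p = 0.00552). Ftcd, a folate enzyme of histidine breakdown, had a log2 fold change of 4.00 ± 0.56. Its levels were low, at 1.68 to 6.86 CPM in YY1 KO and 0.126 to 0.493 CPM in control hearts. Of its stranded reads, 65.0% in YY1 KO and 53.3% in control hearts lay on the opposite strand. On its own strand it was still called (3.51, edgeR adjusted p = 0.00134). Tyms, Mtr and the mitochondrial folate carrier gene Slc25a32 did not pass (log2 fold changes −0.43, −0.21 and 0.006).

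Purine synthesis and the methionine cycle use the one-carbon units. Of 8 purine synthesis genes 0 were higher and 2 lower by edgeR, DESeq2 or limma-voom, with the same counts unadjusted and a median log2 fold change of 0.01. Prps1, which makes the ribose donor, was at 12.3 ± 4.89 CPM in YY1 KO and 38.2 ± 2.10 CPM in control hearts (−1.63 ± 0.23, edgeR adjusted p = 0.00100), and Adsl was lower as well (−0.44 ± 0.08). In the methionine cycle 2 of 5 were higher (Ahcyl1, 0.42 ± 0.08, and Ahcy, 0.36 ± 0.12) and 1 lower (Ahcyl2, −0.30 ± 0.10). Leaving out 1 library kept the call of Ahcy only for control 4 and YY1 KO 3, and that of Ahcyl2 only for control 3 and YY1 KO 2. Of 6 genes for glycine cleavage and methyl-group oxidation, Amt alone was higher (0.80 ± 0.15), with 49.3% of its stranded reads in YY1 KO and 39.0% in control hearts on the opposite strand. On its own strand the log2 fold change of Amt was 0.54 (edgeR adjusted p = 0.0306).

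Of 12 tested genes for the use and transport of serine 2 were higher and 1 lower. The serine racemase gene Srr was at 32.4 ± 3.31 CPM in YY1 KO and 13.6 ± 1.87 CPM in control hearts (1.25 ± 0.12, edgeR adjusted p = 0.000284). With 15.2% of its stranded reads in YY1 KO and 32.6% in control hearts on the opposite strand, Srr had an own-strand log2 fold change of 1.33. Higher too was the neutral amino acid transporter gene Slc1a4, at 14.9 ± 4.26 CPM in YY1 KO and 5.27 ± 1.96 CPM in control hearts (1.49 ± 0.30, adjusted p = 0.00462). Sfxn1, the mitochondrial serine carrier, was lower (−0.44 ± 0.15, adjusted p = 0.0483), a call lost without any single library other than control 1. Beside Asns, 3 of 9 genes of aspartate, asparagine and glutamine metabolism were higher. The cytosolic asparaginyl-tRNA synthetase gene Nars was at 409 ± 40.5 CPM in YY1 KO and 147 ± 9.31 CPM in control hearts (1.47 ± 0.10, edgeR adjusted p = 0.000109). Glul (0.85 ± 0.17), for glutamine synthetase, was also higher.

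Of 4 proline synthesis genes 3 were higher. Pycr1 was at 12.9 ± 6.38 CPM in YY1 KO and 2.42 ± 0.714 CPM in control hearts (2.41 ± 0.40, edgeR adjusted p = 0.00191), and Aldh18a1 had a log2 fold change of 1.07 ± 0.28. In the list of ATF4 and its other targets 12 of 17 tested genes were higher and 0 lower, with a median log2 fold change of 0.92. Atf5 (1.90 ± 0.13), the pseudokinase gene Trib3 (3.43 ± 0.27), Stc2 (0.99 ± 0.14) and Sesn2 (1.00 ± 0.15) had the smallest p. Atf4 itself was at 171 ± 21.3 CPM in YY1 KO and 121 ± 20.9 CPM in control hearts (0.51 ± 0.14, edgeR adjusted p = 0.0218), a smaller fold change than that of Asns or Mthfd2. Trib3, at 29.1 to 55.0 CPM in YY1 KO and 2.96 to 5.496 CPM in control hearts, was the gene of these lists closest in size to that pair.

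**Figure D5:**
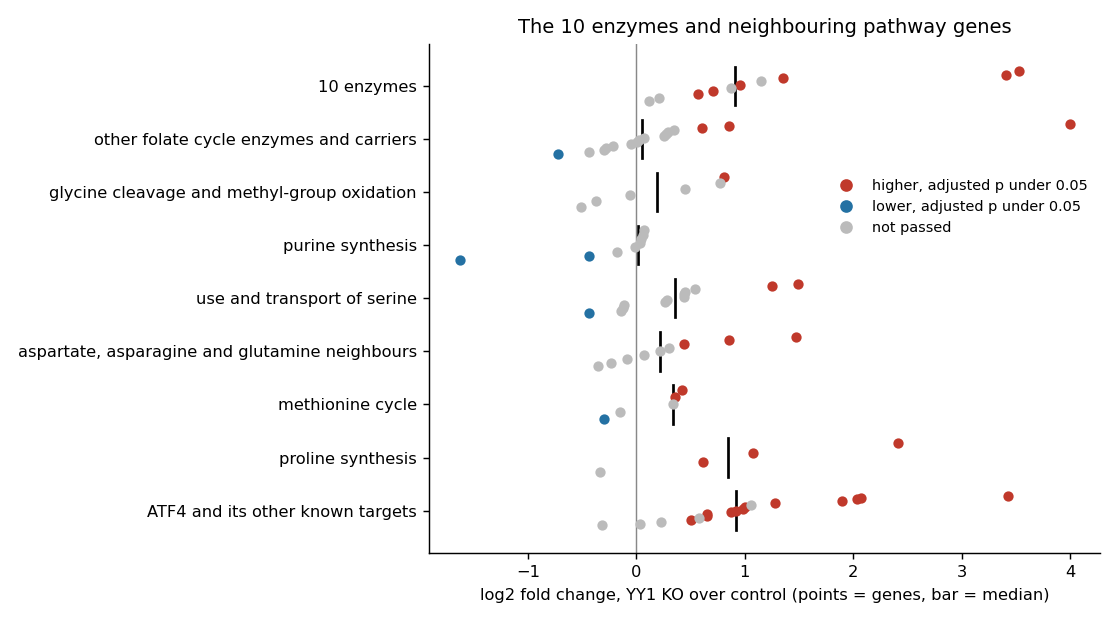
Log2 fold change (YY1 KO over control) of the 10 enzymes and of the tested genes of 8 pathway lists, 1 point per gene, coloured by the edgeR call, with a bar at the median. The medians of the 10 enzymes, proline synthesis and the ATF4 list lie near 0.9, and that of purine synthesis near 0.

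The genes whose profile over the 8 hearts was most like that of Asns were looked for by the root mean square difference in centred log2 CPM. Mthfd2 was at 0.181, closer than any gene outside the set. The nearest 5 others were Gm4890 (0.367), Cfap46 (0.397), 2700038G22Rik (0.400), Trib3 (0.418) and 1700112J16Rik (0.450), of which Gm4890, 2700038G22Rik and 1700112J16Rik are annotated as long noncoding RNAs. For Mthfd2 they were Cfap46 (0.339), the matrix gene Comp (0.377), Gm4890 (0.400), 2700038G22Rik (0.434) and the growth factor gene Tgfb2 (0.435). The measure takes in the size of the genotype difference as well as the order of the hearts, and all profiles share the same 8 libraries. Some of these genes were near the floor, with control means of 0.345 CPM for Gm4890, 0.180 for Cfap46 and 0.132 for 1700112J16Rik. At such levels the prior count of 2 added before the log2 shrinks differences between hearts. Its part in their likeness to Asns and Mthfd2 was not tested.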

How the data were processed

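The deposited files hold raw read counts per gene symbol, 1 table per heart. The submitters' processing notes name Trimmomatic, STAR and the build mm10, and the sources used here name no versions, settings or annotation. RNA came, per the labels' protocols, from snap-frozen heart with Trizol. Counts irrespective of strand were used; lines for unmapped, multimapping, unassigned and ambiguous reads were left out of library sizes, which held 61.1 to 67.0% of reads. Multimapping reads are not counted, so near-identical copies are undercounted.

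Genes were kept with filterByExpr (minimum count 10), leaving 13506, and tested with edgeR 4.0.16 (TMM, robust quasi-likelihood fit, genotype alone in the model), Benjamini-Hochberg adjusted over all of them, with a threshold of 0.05. The SE is the log2 fold change over the root of the F statistic. Isozyme ratios used counts plus 0.5. TPM used the union of exons in GENCODE M21 (24044 symbols with a length), and promoters came from the RefSeq table. The labels number the hearts as separate mice, and all library pairs within a genotype differed beyond counting noise (chi-square over its degrees of freedom at least 14.6). Members and lists were chosen with earlier results of these data known, and list genes were named by the smallest p (up to 4 a list); Tyms, Mtr and Slc25a32 were named after their values were seen. Some list genes are counted but not reported by name here. On simulated counts of 13400 genes in this design, with 200 genes changed, 59.0% of 2-fold and 16.0% of 1.5-fold changes were recovered. That simulation gave 78 calls, against 5248 in the real data. The adjustment was therefore stricter there, and these shares do not give the recovery in the real data. R 4.3.3, limma 3.58.1, DESeq2 1.42.0, Python 3.11.15 and matplotlib 3.10.9 were used.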

Additional observations from a re-analysis of the deposited data

Results flagged for a closer look

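The controls' Mthfd1 levels held a value apart from the rest. Control 2 stood at 46.5 CPM beside 44.5 to 44.7 CPM in the other controls, and its gap took 0.899 of the range, above Dixon's 95% critical value for 4 samples. The difference is small in size, and of 30 groups of 4 values examined this way chance flags about 1 in 20.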

How the results depend on the processing

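Asns, Mthfd2, Aldh1l2 and Shmt1 kept direction and call under all scalings, DESeq2, limma-voom, both other filters, stranded counts, the sex term, the replicate block, the dividing-cell term, the 3 against 3 fit and each left-out library. All 4 lost the call within Xist-positive hearts, and Shmt1 also within Y-positive hearts. The dividing-cell term, the 3 against 3 fit, the interaction and limma-voom within sex were chosen after the data were seen. The count of higher members ran from 4 to 7 over left-out libraries. Within Y-positive hearts it was 3 and within Xist-positive hearts 0, by edgeR and by limma-voom; fewer samples enter these fits. The log2 fold changes of Shmt2 (−0.0406) and Mthfd1 (−0.00205) changed sign within Y-positive hearts, and likewise in limma-voom (−0.0406 and −0.00276). Pathway genes higher numbered 0 and lower 0 within Xist-positive hearts, and lower 2 within Y-positive hearts; lower genes numbered 3 with library size scaling, with no filter and with the replicate block, 10 with the dividing-cell term, and 3 to 5 over left-out libraries, and the cause was not tested.

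Deviations of same-numbered mice had correlations of −0.464, 0.337, −0.056 and 0.271, and different-numbered mice ranged from −0.423 to 0.478. Same-numbered mice were also alike in their sex-linked transcripts. These values cannot decide whether the numbers pair the mice, because the correlations are few and vary as widely between different numbers. With the replicate block 5 members were higher, 4026 genes were called in all against 5248, and Psat1 missed (adjusted p = 0.0852). Ratio differences with the block (exact sign flips over 4 pairs) were −0.595, 3.28 and 1.29 for Shmt2/Shmt1, Mthfd2/Mthfd1 and Aldh1l2/Aldh1l1 at an adjusted p of 0.167, a design too small to pass. Over left-out libraries they ranged from −0.676 to −0.530, 2.99 to 3.53 and 0.880 to 1.66, with an exact adjusted p of at most 0.0762. Longest-transcript lengths put the TPM of Mthfd2 at 138 in YY1 KO and 11.9 in control hearts, within 1 SD, and moved that of Psph in YY1 KO hearts to 9.02. Mthfd1l had 6 to 103 reads per heart, and the part of counting noise in its wide error was not tested.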
